A study of Homo sapiens with 12 samples.

Results

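The genes described here are 44 genes of the extracellular matrix and of its remodelling, out of 40173 gene IDs in the expression table of a study on human melanoma cells. They were taken as a named list of collagens, matrix glycoproteins, laminins, proteoglycans, fibrillins, lysyl oxidases, proteases and protease inhibitors, and each was matched to 1 Ensembl gene ID. All RNA came from 624Mel, a human melanoma cell line with a pigment cell expression program. The cells were transfected with a non-targeting siRNA (siCTRL) or with siRNA against MITF (siMITF), a transcription factor that drives melanocytic genes. They received either no cytokine or IFNγ at 5 ng/mL for the last 24 h of a 48 h culture, giving 4 conditions (siCTRL, siMITF, siCTRL + IFNγ and siMITF + IFNγ) with 3 RNA libraries each. All results therefore rest on 1 cell line and 1 time point, and transient knockdown leaves part of the MITF RNA in place. Values are TPM, that is transcript abundances scaled for transcript length and library total, so levels can be set side by side between genes. The depth of the libraries is unknown.

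The extracellular matrix is a network of secreted proteins around cells. Fibrillar collagens give it tensile strength, laminins with collagen IV, nidogen and perlecan form the basement membrane on which melanocytes rest, and glycoproteins such as fibronectin and tenascin-C are bound by integrins on the cell surface. Lysyl oxidases crosslink collagen and elastin, while matrix metalloproteinases and the plasminogen activators cut matrix proteins and are held in check by tissue inhibitors of metalloproteinases and by serpins. Melanoma cells make part of this matrix themselves and fibroblasts of the tumour make much of the rest.

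The knockdown and the identity of the cells were checked first. MITF was at a mean of 211 TPM ± 21.7 (SD, n = 3) in siCTRL, 42.5 ± 6.87 in siMITF, 216 ± 50.1 in siCTRL + IFNγ and 48 ± 9.23 in siMITF + IFNγ. The summed level of 7 melanocytic genes was 6012 to 7090 TPM in siCTRL, 1671 to 1907 in siMITF, 5548 to 7382 in siCTRL + IFNγ and 1649 to 2016 in siMITF + IFNγ. With siMITF alone 6 of them fell and S100B rose (means of 81.8 and 167 TPM). Mitochondrial transcripts took 7.42 to 16.9% of TPM. Replicate 2 had the lowest share in each condition, at 7.42% in siCTRL, 10.1% in siMITF, 8.45% in siCTRL + IFNγ and 12.7% in siMITF + IFNγ. The summed TPM of 7 fibroblast and mural markers was 6.90 to 9.10 in siCTRL, 12.4 to 14.7 in siMITF, 5.07 to 5.72 in siCTRL + IFNγ and 6.92 to 9.42 in siMITF + IFNγ, with PDGFRB at or under 0.262 TPM in every library. Of those markers 3 were tested, and all of them (PDGFRA, LUM and FAP) rose with siMITF alone. The summed TPM of 4 leukocyte markers was 2.76 to 3.06 in siCTRL, 4.55 to 5.53 in siMITF, 1.63 to 2.11 in siCTRL + IFNγ and 3.65 to 4.07 in siMITF + IFNγ, with CD3E listed at 0 in all 12 libraries. LYZ made up most of that sum, with means of 2.44 TPM in siCTRL and 4.74 in siMITF. PTPRC (0.212 and 0.170 TPM) and CD14 (0.237 and 0.102 TPM) had lower means in siMITF. Endothelial (3 genes) and keratinocyte (3 genes) marker sums stayed at or under 0.800 and 0.0721 TPM. The part of these shifts in the matrix results was not tested. In bulk RNA, fewer cells with a transcript and less of it per cell cannot be told apart.

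624Mel cells expressed a restricted set of the matrix genes. Of the 44 genes, 24 averaged 2 TPM or more in 1 condition or several and were tested, and the other 20 had means of at most 0.849 TPM in all 4 conditions. SPARC, a secreted collagen-binding glycoprotein, was the most abundant, at 1022 to 1476 TPM, and made up 35.0 to 46.1% of the summed TPM of the 44 genes. The protease inhibitor gene SERPINE2, at 315 to 599 TPM, followed in all conditions but siCTRL + IFNγ, where SPP1 lay above it in every library. Fibronectin (FN1), the laminin γ1 chain (LAMC1), MMP14, PLAT, TIMP1, TIMP2 and the collagen IX chain COL9A3 were at 61.7 TPM or more in every library. The genes below the minimum included the collagen I chains COL1A1 and COL1A2, the collagen III chain COL3A1, COL5A2, the collagen IV chains COL4A1 and COL4A2, COL6A3 and COL12A1. They also included the glycoproteins THBS1 and THBS2, NID1, the proteoglycans VCAN and BGN, the fibrillins FBN1 and FBN2, the lysyl oxidases LOX, LOXL1 and LOXL4, and the proteases MMP1 and PLAU. No library of these genes exceeded 1.29 TPM, and none entered the main test. In the fit with no filter on low values, COL5A2, VCAN, BGN, FBN2 and MMP1 rose with siMITF alone and none of the 20 fell, against 10.2% and 6.43% of 29003 genes. With siMITF under IFNγ 4 rose (COL1A2, BGN, FBN2 and LOX) and 1 fell (LOXL4), against 9.31% and 6.78%. BGN, biglycan, was at 0.515 to 0.566 TPM in siMITF and 0.464 to 0.631 in siMITF + IFNγ, but at most 0.0366 in the siCTRL conditions (0.58 on the log2(TPM + 1) scale for siMITF alone in that fit, limma adjusted p = 7.52e-06). THBS1, thrombospondin-1, was at 0.511 to 0.931 TPM in the IFNγ libraries and 0.0768 to 0.312 in the others (0.51 for IFNγ in siCTRL cells, adjusted p = 0.0131). The summed TPM of the 44 genes was 2631 to 3178 in siCTRL, 3347 to 3705 in siMITF, 2920 to 3785 in siCTRL + IFNγ and 3645 to 3871 in siMITF + IFNγ. The siMITF libraries were above all siCTRL libraries, whereas siCTRL + IFNγ overlapped both. Replicate 2 had the highest sum in each condition.

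**Figure D1:**
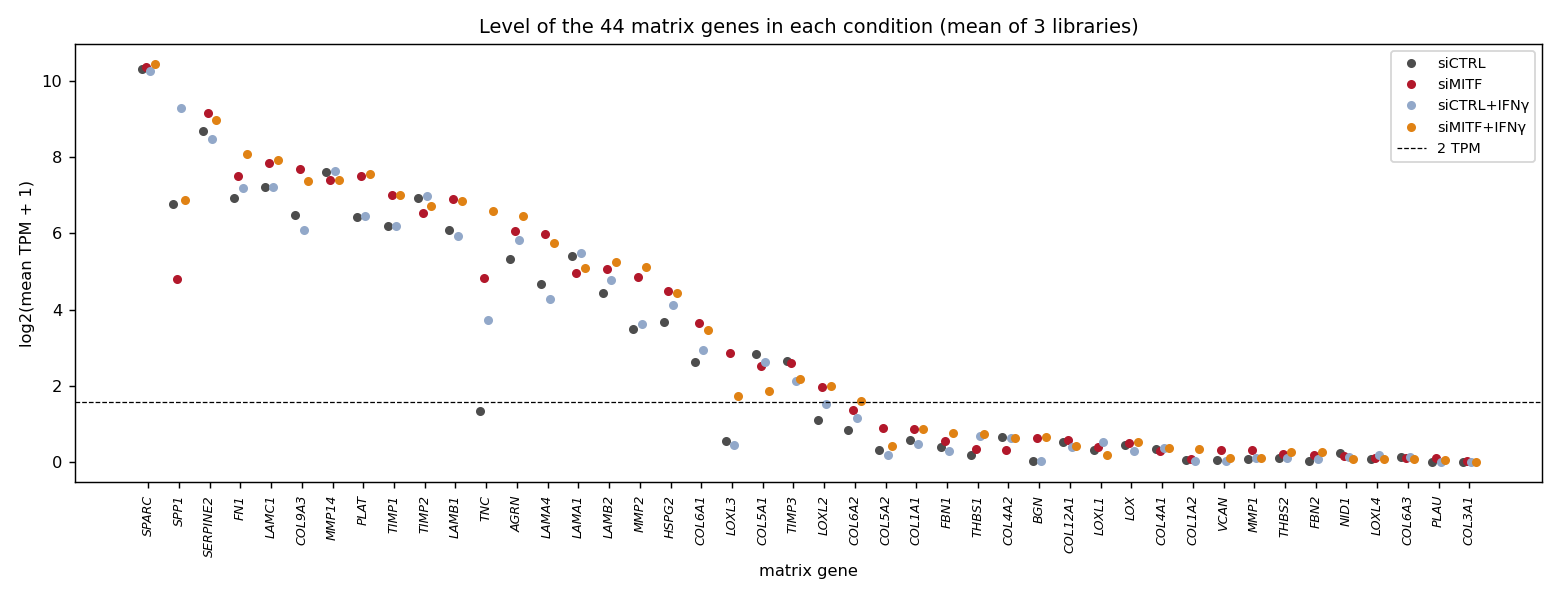
Level of each of the 44 matrix genes, as log2(mean TPM + 1) of 3 libraries, in the 4 conditions, ordered by the highest condition; the dashed line is 2 TPM. SPARC lies highest, 20 genes lie below the line in every condition, and SPP1, TNC and LOXL3 show wide gaps between conditions.

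MITF knockdown was followed by higher levels of most of the tested matrix genes. In limma fits of log2(TPM + 1), 17 of the 24 tested genes rose and 3 fell in siMITF against siCTRL (adjusted p under 0.05, Benjamini-Hochberg over 12773 genes). Among all tested genes 21% rose and 13.8% fell. The median log2 change was 0.68 over the 24 genes and 0.06 over all tested genes. Under IFNγ, siMITF against siCTRL gave 16 rises and 4 falls, against 18.4% and 14.7% of all genes, with medians of 0.51 and 0.03. With only the compared groups in the fit this became 13 rises and 1 fall, against 11.9% and 9.51%. With 1 library left out 14 to 20 of the 24 genes passed, while 3290 of 12783 to 4326 of 12794 passed among all genes. The falls were then 1 without siCTRL + IFNγ replicate 2 or 3 or siMITF + IFNγ replicate 1, and 2 without siMITF + IFNγ replicate 2. TNC, LOXL2, LOXL3 and COL6A2 were tested because of the conditions in which they are high, since their siCTRL means were under 2 TPM, so these counts describe the list and are not support for it. Both siMITF comparisons use separate libraries but come from the same fit, and libraries of the same replicate number tended to deviate together. They are therefore not independent repeats. In both of them 19 of the 24 genes passed with the same sign, against 25.4% of all genes, and this count too describes the list.

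With a stricter call, which also asks for an absolute log2 change of 1 or more and for 2 TPM or more on average in a compared condition, 8 of the 24 genes changed with siMITF alone against 6.1% of all genes. TNC, LOXL3, MMP2, LAMA4, COL9A3, PLAT and COL6A1 were higher and SPP1 was lower. COL6A1 was just past the size limit and fell short of it after quantile normalization (0.91), after centring each library on its median (0.99), and without siCTRL replicate 1 (0.96) or 3 (0.99). Under IFNγ 7 changed, against 5.68% of all genes: all of those just named except COL6A1. The groups of libraries did not overlap for 20 of the 24 genes with siMITF alone, against 55% of all genes, and for 18 under IFNγ, against 38.3%.

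With IFNγ 7 of the 24 matrix genes passed in siCTRL cells and 6 in siMITF cells. In siCTRL cells 4 of the 24 rose (SPP1, TNC, HSPG2, LAMB2) and 3 fell (TIMP3, LAMA4, COL9A3), against 6.8% and 6.14% of all genes. TNC and SPP1 changed by the stricter call, which 2.52% of all genes met. In siMITF cells 3 rose (SPP1, TNC, FN1) and 3 fell (LOXL3, TIMP3, COL9A3), against 7.99% and 12.2%. TNC, SPP1 and LOXL3 changed there, against 2.95% of all genes, although LOXL3 was short of the size limit without siMITF + IFNγ replicate 1 (−0.98). The medians over the 24 genes were 0.03 and 0.04, and those over all genes were −0.07 and −0.10. In the fit blocked on replicate number, the genes passing were 11 in siCTRL cells, against 25.7% of all genes, and 11 in siMITF cells, against 35.7%. With quantile normalization they were 11 and 14, against 22.1% and 31.3%. The replicate block added COL6A1 (adjusted p = 0.0255), FN1 (0.0420), AGRN (0.00525) and SERPINE2 (0.0438) in siCTRL cells. In siMITF cells the block added COL5A1 (0.000321), LAMA4 (0.0219), AGRN (0.0203), MMP2 (0.0198) and SERPINE2 (0.0356).

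In siMITF + IFNγ against siCTRL, 17 of the 24 genes rose and 2 fell (COL5A1 and TIMP3), against 21.1% and 23.4% of all genes. TNC, MMP2, LOXL3, FN1, PLAT, AGRN and LAMA4 changed by the stricter call and all were higher, against 8.75% of all genes. The stricter call was lost for LOXL3 after quantile normalization (0.75), for LAMA4 without siCTRL replicate 1 (0.99) and for AGRN without siMITF + IFNγ replicate 3 (0.95). The median was 0.78 over the 24 genes and −0.04 over all genes. The rise of SERPINE2 (0.30, adjusted p = 0.0170) was lost without siCTRL replicate 1 (0.0702) or 3 (0.0516). With the replicate block LAMA1 (−0.32, adjusted p = 0.00527) and TIMP2 (−0.21, adjusted p = 0.0171) were added to the falls. This comparison shares its siMITF + IFNγ and siCTRL libraries with the others.

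**Figure D2:**
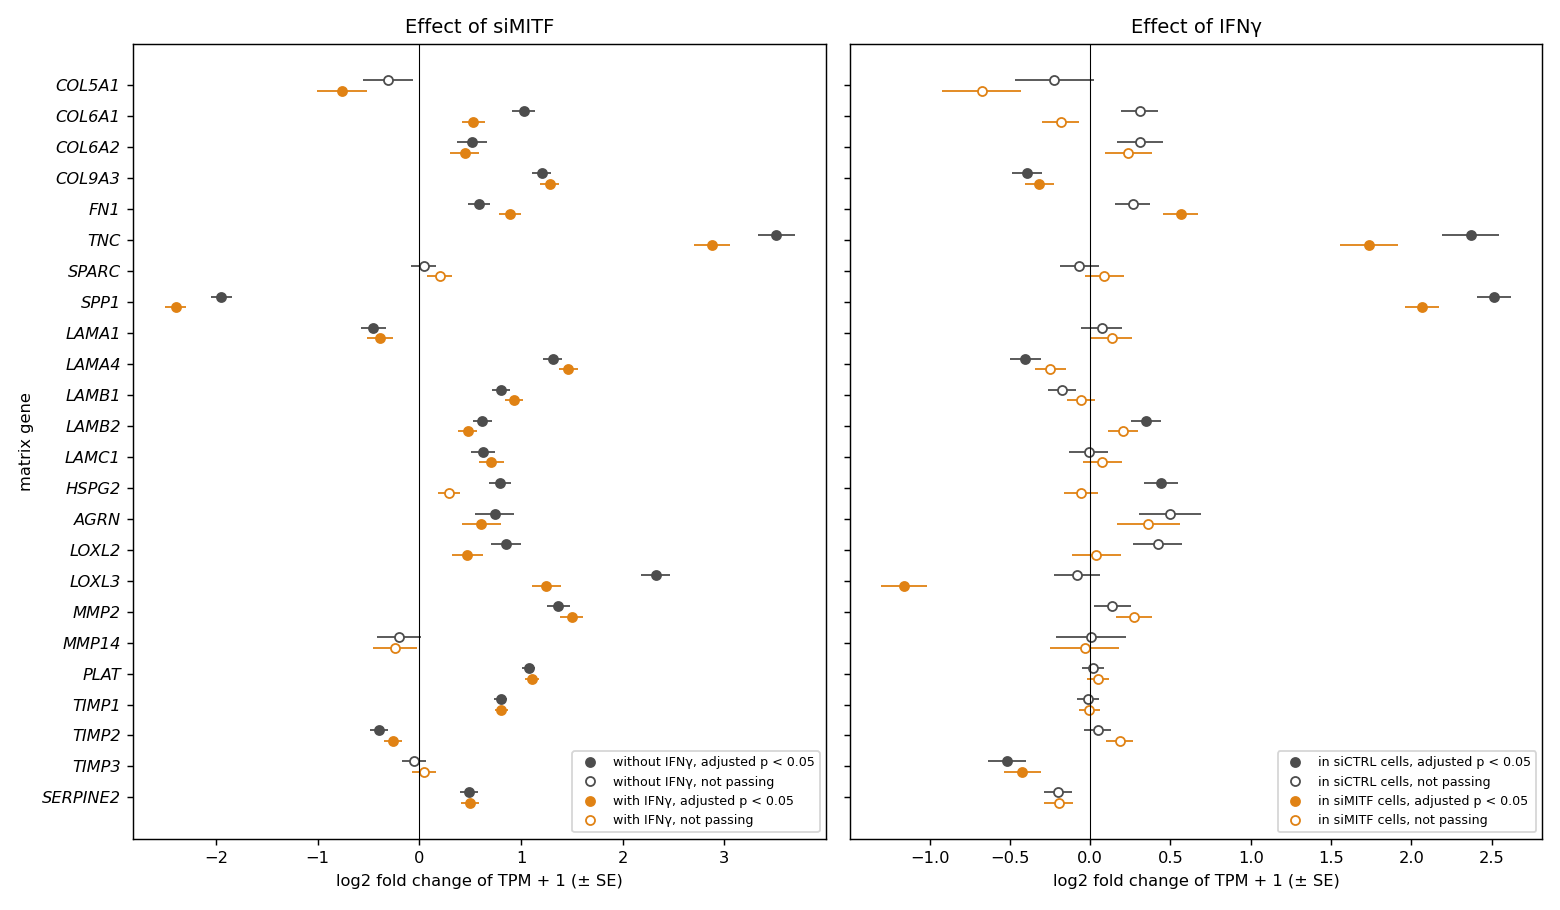
Log2 fold changes of TPM + 1 with SE for the 24 tested matrix genes (limma, 3 libraries per condition). Left, siMITF without (grey) and with (orange) IFNγ. Right, IFNγ in siCTRL (grey) and siMITF (orange) cells. Filled points have an adjusted p under 0.05. Most siMITF effects lie to the right of 0, with SPP1 far to the left, and the IFNγ effects farthest from 0 are those of SPP1, TNC and, in siMITF cells, LOXL3.

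TNC, SPP1 and LOXL3 had the widest range of condition means on the log2(TPM + 1) scale. Their upstream sequences are shown for that reason, as RefSeq gives them on GRCh38.p14. Each run covers the bases from 250 to 21 before a RefSeq start site, 5′ to 3′ on the strand of the gene. TNC lies at chr9:115118178-115118407 on the minus strand, with a TATANA match in capitals that starts 29 bases before the start site. SPP1 lies at chr4:87975464-87975693 on the plus strand, with no match. LOXL3 lies at chr2:74553963-74554192 on the minus strand, with a TTCNNNGAA match in capitals.
TNC: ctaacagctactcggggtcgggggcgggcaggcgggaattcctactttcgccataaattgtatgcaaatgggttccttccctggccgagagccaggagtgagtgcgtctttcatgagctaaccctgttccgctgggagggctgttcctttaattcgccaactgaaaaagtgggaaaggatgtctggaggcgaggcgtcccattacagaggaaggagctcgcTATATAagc
SPP1: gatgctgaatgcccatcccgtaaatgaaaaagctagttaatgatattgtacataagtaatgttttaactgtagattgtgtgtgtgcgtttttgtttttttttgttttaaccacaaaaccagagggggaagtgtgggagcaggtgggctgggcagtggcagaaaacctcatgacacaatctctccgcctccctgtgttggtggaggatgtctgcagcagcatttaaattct
LOXL3: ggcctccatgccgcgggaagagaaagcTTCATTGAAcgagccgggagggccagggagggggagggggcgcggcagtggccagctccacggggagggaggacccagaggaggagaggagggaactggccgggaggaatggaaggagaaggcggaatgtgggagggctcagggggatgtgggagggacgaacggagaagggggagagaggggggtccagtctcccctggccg
The searched letters were CACGTG and CATGTG (E-box forms), TGANTCA (an AP-1 form), TTCNNNGAA (the palindrome of gamma-activated sites) and TATANA, on both strands of the 250 bases before each start site. RefSeq windows were matched for 31 of the 44 genes (37 windows, some genes having several start sites) and not for COL1A1, COL1A2, COL3A1, COL5A2, COL6A1, COL9A3, LAMA1, AGRN, LOXL2, MMP1, MMP2, PLAT and TIMP2. CACGTG was in the windows of FBN2 and SERPINE2, against 6.34% of 35116 windows. CATGTG was in a second LOXL3 window and in SERPINE2, against 9.42%. TTCNNNGAA was in LAMB2, LOXL3 and THBS1 (6.57% of windows), TATANA in TNC, LAMA4, COL6A2, PLAU and THBS2 (17.7%), and TGANTCA in none of the 37 (6.57%). These are matches of letters and not sites of binding.

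TNC (chr9:115019575-115118207 on GRCh38, as are the positions that follow) encodes tenascin-C, a large glycoprotein of wound and tumour matrix. Its libraries were at 1.17, 1.86 and 1.53 TPM in siCTRL, 25.3, 28.6 and 29.1 in siMITF, 8.91, 15.4 and 12.4 in siCTRL + IFNγ, and 76.7, 103 and 106 in siMITF + IFNγ. The 4 conditions did not overlap. TNC rose with siMITF (log2 change 3.51, SE 0.18, adjusted p = 1.93e-08) and with siMITF under IFNγ (2.88, adjusted p = 1.25e-07). It rose with IFNγ in siCTRL (2.37, adjusted p = 8.42e-07) and in siMITF cells (1.74, adjusted p = 1.65e-05). The ratio of mean TPM of siMITF + IFNγ to siCTRL was 62.6. The interaction, that is the log2 response to IFNγ after siMITF less the one after siCTRL, was −0.63 (SE 0.25, adjusted p = 0.509), and with the replicate block its adjusted p was 0.0326.

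SPP1 (chr4:87975667-87983532) encodes osteopontin, a secreted phosphoprotein that binds integrins and CD44. Its libraries were at 107, 117 and 98.3 TPM in siCTRL, 27.3, 30.1 and 24.1 in siMITF, 611, 671 and 570.1 in siCTRL + IFNγ, and 127, 119 and 103 in siMITF + IFNγ. siCTRL and siMITF + IFNγ overlapped, with the siMITF libraries below and the siCTRL + IFNγ libraries above both. SPP1 fell with siMITF (−1.94, SE 0.10, adjusted p = 3.33e-08) and with siMITF under IFNγ (−2.40, adjusted p = 7.72e-09). It rose with IFNγ in siCTRL (2.52, adjusted p = 1.91e-09) and in siMITF cells (2.06, adjusted p = 1.23e-08). For siMITF + IFNγ against siCTRL the value was 0.12 (SE 0.10, adjusted p = 0.378). The interaction was −0.45 (adjusted p = 0.328, and 0.0127 with the replicate block). SPP1 and TNC thus moved in the same direction with IFNγ and in opposite directions with siMITF.

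Among the lysyl oxidases, LOXL3 (chr2:74532258-74555690) was at 0.466, 0.461 and 0.454 TPM in siCTRL, 6.41, 6.77 and 5.79 in siMITF, 0.348, 0.501 and 0.295 in siCTRL + IFNγ, and 1.58, 2.49 and 2.92 in siMITF + IFNγ. Both siMITF conditions were above both siCTRL conditions, and siMITF + IFNγ was below siMITF in all libraries. LOXL3 rose with siMITF (2.32, SE 0.14, adjusted p = 1.06e-07) and with siMITF under IFNγ (1.25, adjusted p = 2.62e-05), and fell with IFNγ in siMITF cells (−1.16, adjusted p = 9.19e-05). With IFNγ in siCTRL cells its value was −0.08 (adjusted p = 0.773), and after quantile normalization −0.53 (adjusted p = 0.0167). Its interaction was the only one of the 24 to pass (−1.07, SE 0.20, adjusted p = 0.0253), against 0.947% of all genes. The interaction did not pass without any 1 of the 9 libraries of siCTRL, siMITF and siCTRL + IFNγ: the adjusted p was 0.0706, 0.0690 and 0.0794 without siCTRL replicates 1 to 3, 0.0822, 0.0888 and 0.0544 without those of siMITF, and 0.0501, 0.0628 and 0.0538 without those of siCTRL + IFNγ. Unadjusted p under 0.05 was also reached by COL6A1, HSPG2, SPP1 and TNC, for 5 genes in all. The share of all genes at that unadjusted level was not counted, so this number is not a result about the list.

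LOXL3 shares transcribed bases with genes on the opposite strand, and the library kit does not keep strand. HTRA2 covers 936 of its 4519 exonic bases and DOK1 covers 216. DOK1 had means of 1.66, 6.0, 1.04 and 2.95 TPM in siCTRL, siMITF, siCTRL + IFNγ and siMITF + IFNγ, and HTRA2 had 45.6, 60.7, 39.0 and 46.1 TPM. The means of both genes had the same order over the conditions as those of LOXL3. Reads in the shared bases cannot be assigned to one strand, and their part in the LOXL3 values was not tested.

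LOXL2, which crosslinks collagen IV, was at 0.833 to 1.40 TPM in siCTRL, 2.43 to 3.41 in siMITF, 1.65 to 2.30 in siCTRL + IFNγ and 2.41 to 3.42 in siMITF + IFNγ. It rose with siMITF (0.85, adjusted p = 0.000839) and with siMITF under IFNγ (0.47, adjusted p = 0.0304). The second call was lost without siCTRL + IFNγ replicate 2 (adjusted p = 0.0792) or 3 (0.110) and without siMITF + IFNγ replicate 2 (0.0981) or 3 (0.0908). It was also lost with quantile normalization (0.0567), centring (0.0521), no filter (0.0781) or only the compared groups in the fit (0.0668). ENTPD4, on the same strand, shares 120 of the 5985 exonic bases of LOXL2. ENTPD4 had means of 16.1, 24.8, 15.8 and 22.1 TPM in siCTRL, siMITF, siCTRL + IFNγ and siMITF + IFNγ. The part of the shared bases in the LOXL2 values was not tested. LOX, LOXL1 and LOXL4 stayed at or under 0.647 TPM in every library.

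**Figure D3:**
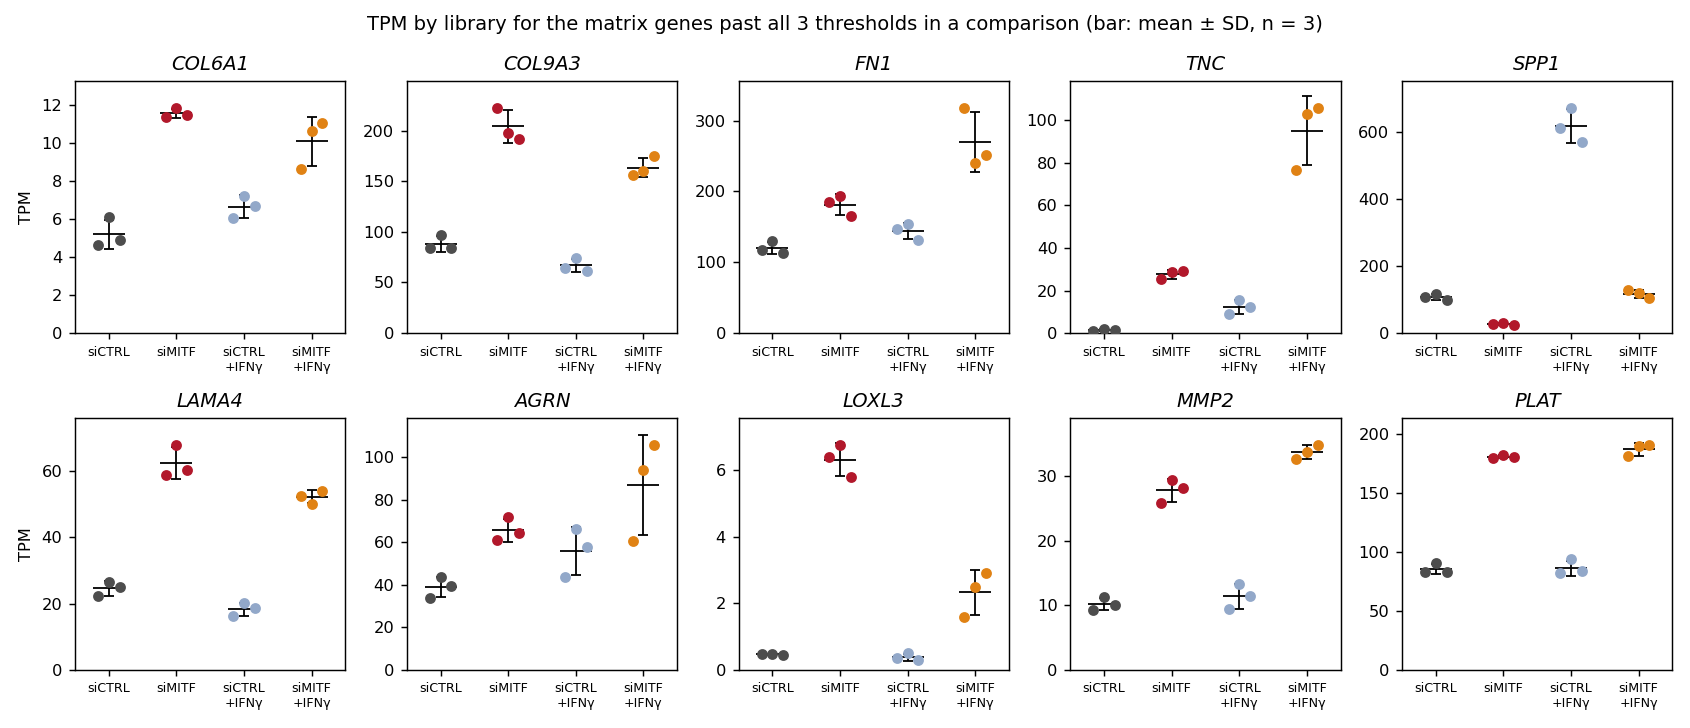
TPM of the 10 matrix genes that changed by the stricter call in at least 1 comparison, with points for the 3 libraries of each condition and bars for mean ± SD. Each panel has its own linear axis from 0. TNC is highest with both treatments, SPP1 is highest in siCTRL + IFNγ, LOXL3 is highest in siMITF, and LAMA4, MMP2, PLAT and COL9A3 separate the siMITF from the siCTRL conditions.

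The collagens that 624Mel cells expressed were few. COL9A3 (chr20:62816244-62841159) encodes a chain of collagen IX, a fibril-associated collagen of cartilage. It was at 83.7, 96.8 and 83.7 TPM in siCTRL, 222, 198 and 192 in siMITF, 64.8, 74.2 and 61.7 in siCTRL + IFNγ, and 156, 160.2 and 175 in siMITF + IFNγ. The siMITF conditions lay above both siCTRL conditions, and IFNγ libraries lay below their untreated counterparts. COL9A3 rose with siMITF (1.20, adjusted p = 6.73e-07) and with siMITF under IFNγ (1.28, adjusted p = 4.36e-07). It fell with IFNγ in siCTRL (−0.39, adjusted p = 0.0136) and in siMITF cells (−0.32, adjusted p = 0.0285). The fall in siCTRL cells was lost without siCTRL replicate 2 (adjusted p = 0.0663) or siCTRL + IFNγ replicate 3 (0.0696). The fall in siMITF cells was lost without siMITF replicate 1 (0.124) or 2 (0.0651) and without siMITF + IFNγ replicate 1 (0.0787) or 2 (0.0752). COL9A3 also lost that call with no filter (0.0595). Its exons share 155 bases with TCFL5 on the other strand, which had means of 33.6, 21.8, 31.2 and 21.6 TPM in siCTRL, siMITF, siCTRL + IFNγ and siMITF + IFNγ.

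Collagen VI, a beaded filament of chains from COL6A1, COL6A2 and a further, larger chain, was represented by its 2 smaller chains. COL6A1 (chr21:45981770-46005050) was at 4.62, 6.07 and 4.87 TPM in siCTRL, 11.4, 11.8 and 11.4 in siMITF, 6.02, 7.20 and 6.70 in siCTRL + IFNγ, and 8.62, 10.6 and 11 in siMITF + IFNγ. The siMITF conditions were above the siCTRL conditions in every library. COL6A1 rose with siMITF (1.03, SE 0.12, adjusted p = 2.21e-05) and with siMITF under IFNγ (0.53, adjusted p = 0.00365). The interaction was −0.49 (adjusted p = 0.343). COL6A2 was at 0.705 to 0.940 TPM in siCTRL, 1.49 to 1.71 in siMITF, 0.861 to 1.60 in siCTRL + IFNγ and 1.60 to 2.55 in siMITF + IFNγ. Only siMITF + IFNγ averaged 2 TPM or more (2.06), and without replicate 3 of that condition COL6A2 was not tested. It rose with siMITF (0.52, adjusted p = 0.0147) and under IFNγ (0.45, adjusted p = 0.0325). The first call was lost without siMITF replicate 1 (adjusted p = 0.0552) and after quantile normalization (0.207). The second was lost without siCTRL + IFNγ replicate 1 (0.120) or 3 (0.0689) or siMITF + IFNγ replicate 2 (0.0650). It was also lost with quantile normalization (0.0565), no filter (0.0677) or only the compared groups in the fit (0.114). COL6A3, which encodes the larger chain, was at 0.0393 to 0.115 TPM.

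COL5A1 was the only fibrillar collagen gene of the named list to be tested. It was at 4.63, 6.81 and 7.01 TPM in siCTRL and 3.50, 5.61 and 5.25 in siMITF. With IFNγ it was at 3.39, 6.55 and 5.67 TPM in siCTRL cells and 1.64, 2.84 and 3.49 in siMITF cells. Replicate 1 was the lowest in each condition, and siMITF + IFNγ lay below siCTRL in every library. Its siMITF values were negative, while those of the other tested collagen genes on that list were positive. The value was −0.31 with siMITF (adjusted p = 0.369, and 0.0255 with the replicate block), and it fell with siMITF under IFNγ (−0.76, SE 0.25, adjusted p = 0.0310) and in siMITF + IFNγ against siCTRL (−0.98, adjusted p = 0.00593). The fall under IFNγ was lost without siCTRL + IFNγ replicate 2 (adjusted p = 0.111) or 3 (0.101) and without siMITF + IFNγ replicate 1 (0.107) or 2 (0.0504). It was also lost with no filter (0.0974) or only the compared groups in the fit (0.0646). Its collagen V partner COL5A2 did not exceed 1.07 TPM in any library.

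Laminins are trimers of an α, a β and a γ chain. LAMA4 (chr6:112107931-112254939), an α chain of vessel and mesenchymal basement membranes, was at 22.2, 26.5 and 25.1 TPM in siCTRL, 58.9, 68.0 and 60.5 in siMITF, 16.3, 20.2 and 18.6 in siCTRL + IFNγ, and 52.6, 50.2 and 54.1 in siMITF + IFNγ. LAMA1 (chr18:6941742-7117797), an α chain typical of embryonic basement membranes, was at 38.6, 43.7 and 41.5 TPM in siCTRL, 29.2, 32.7 and 28.1 in siMITF, 36.4, 49.8 and 44.9 in siCTRL + IFNγ, and 27.7, 35.5 and 36.1 in siMITF + IFNγ. The 4 conditions did not overlap for LAMA4, and LAMA1 was the more abundant of these α chains in all siCTRL libraries and the less abundant in all siMITF libraries.

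LAMA4 rose with siMITF (1.31, SE 0.10, adjusted p = 5.24e-07) and with siMITF under IFNγ (1.47, adjusted p = 2.16e-07). LAMA1 fell in both (−0.45, adjusted p = 0.0150, and −0.39, adjusted p = 0.0330). The first LAMA1 call was lost without siCTRL replicate 2 (adjusted p = 0.0534) and siMITF replicate 1 (0.0507) or 3 (0.0585), and the second without siCTRL + IFNγ replicate 2 (0.116) or 3 (0.0995) and siMITF + IFNγ replicate 1 (0.109). The second was also lost with no filter (0.0780) or only the compared groups in the fit (0.111). The ratio of LAMA4 to LAMA1 TPM, chosen after the values were seen and not tested, was 0.574 to 0.606 in siCTRL, 2.02 to 2.15 in siMITF, 0.405 to 0.448 in siCTRL + IFNγ and 1.41 to 1.90 in siMITF + IFNγ. With IFNγ in siCTRL cells LAMA4 fell (−0.40, adjusted p = 0.0156), a call lost without siCTRL replicate 2 (0.0732) or 3 (0.0610) or siCTRL + IFNγ replicate 1 (0.0511). That call was also lost with only the compared groups in the fit (0.0698).

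The β and γ chains rose together with siMITF. LAMB1 had means of 67.5 TPM ± 4.07 in siCTRL, 119 ± 5.37 in siMITF, 59.8 ± 7.41 in siCTRL + IFNγ and 114 ± 2.42 in siMITF + IFNγ, and rose by 0.81 without and 0.93 with IFNγ (adjusted p = 1.43e-05 and 4.72e-06). LAMC1, the γ chain, had means of 147 ± 16.1, 227 ± 20.2, 147 ± 23.9 and 239 ± 18.1 TPM in the same order, and rose by 0.63 and 0.71 (adjusted p = 0.00155 and 0.000646). LAMB2, at lower levels with means of 20.7, 32.2, 26.5 and 37.3 TPM, rose by 0.62 and 0.48 (adjusted p = 0.000270 and 0.00202). LAMB2 also rose with IFNγ in siCTRL cells (0.35, adjusted p = 0.0312), as did LAMA5, an α chain outside the 44 genes that is named here after its values were seen (0.90, adjusted p = 1.54e-05). The LAMB2 call was lost without siCTRL replicate 1 (0.119) or 3 (0.120) and without siCTRL + IFNγ replicate 1 (0.0521), 2 (0.0663) or 3 (0.0826). It was also lost with no filter (0.0525) or only the compared groups in the fit (0.0940). NID1, which links laminin to collagen IV, did not exceed 0.239 TPM.

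**Figure D4:**
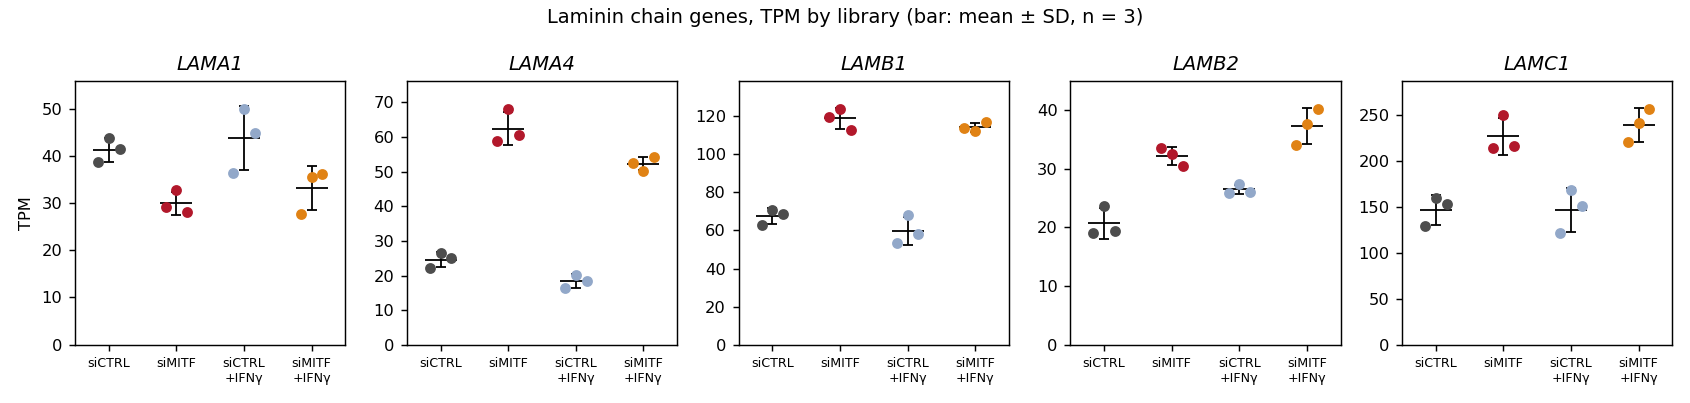
TPM of the 5 laminin chain genes, with points for the 3 libraries of each condition and bars for mean ± SD, each panel on its own linear axis from 0. LAMA4, LAMB1, LAMB2 and LAMC1 are higher in siMITF than in siCTRL with and without IFNγ, and LAMA1 is lower.

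Of the basement membrane proteoglycans, HSPG2 encodes perlecan and AGRN encodes agrin. HSPG2 was at 11.6 to 12.2 TPM in siCTRL, 19.3 to 23.4 in siMITF, 15.5 to 17.6 in siCTRL + IFNγ and 17.6 to 23.2 in siMITF + IFNγ. It rose with siMITF (0.79, adjusted p = 8.56e-05) and with IFNγ in siCTRL cells (0.44, adjusted p = 0.0156, lost without siCTRL replicate 1, 0.0552, or 2, 0.0540). With siMITF under IFNγ its value was 0.29 (adjusted p = 0.0503, and 0.0251 with the replicate block). AGRN (chr1:1020120-1056118) was at 33.9, 43.6 and 39.3 TPM in siCTRL, 60.8, 71.6 and 64.4 in siMITF, 43.6, 66.1 and 57.7 in siCTRL + IFNγ, and 60.5, 94.2 and 106 in siMITF + IFNγ. The siMITF libraries lay above all siCTRL libraries, and the siMITF + IFNγ libraries ran from the level of siCTRL + IFNγ to the highest of all. AGRN rose with siMITF (0.74, adjusted p = 0.00987) and under IFNγ (0.61, adjusted p = 0.0286), and by 1.11 (adjusted p = 0.000538) in siMITF + IFNγ against siCTRL. The call under IFNγ was lost without siCTRL + IFNγ replicate 1 (adjusted p = 0.0975) or 3 (0.0569) and siMITF + IFNγ replicate 2 (0.0921) or 3 (0.117). It was also lost with no filter (0.0896) or only the compared groups in the fit (0.0863).

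FN1 (chr2:215360440-215436073), fibronectin, was at 117, 129.9 and 113 TPM in siCTRL, 184, 194 and 165 in siMITF, 147, 154 and 131 in siCTRL + IFNγ, and 318, 240.1 and 252 in siMITF + IFNγ. The siMITF + IFNγ libraries were the highest, and the siCTRL libraries the lowest. FN1 rose with siMITF (0.59, SE 0.11, adjusted p = 0.00112), with siMITF under IFNγ (0.89, adjusted p = 4.57e-05) and with IFNγ in siMITF cells (0.57, adjusted p = 0.00294). With IFNγ in siCTRL cells its value was 0.26 (adjusted p = 0.146), and the difference between both IFNγ effects did not pass (interaction 0.30, adjusted p = 0.736). SPARC passed in no comparison, with values of 0.04 for siMITF (adjusted p = 0.816) and 0.20 for siMITF under IFNγ (adjusted p = 0.235, and 0.0345 with the replicate block). The latter was also past the threshold without siCTRL + IFNγ replicate 2 (0.0350).

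The proteases split by gene. MMP2 (chr16:55389700-55506691), gelatinase A, was at 9.32, 11.2 and 10.0 TPM in siCTRL, 25.9, 29.4 and 28.1 in siMITF, 9.43, 13.3 and 11.4 in siCTRL + IFNγ, and 32.7, 33.7 and 34.9 in siMITF + IFNγ. All siMITF libraries lay above all siCTRL libraries, with or without IFNγ. MMP2 rose with siMITF (1.37, SE 0.11, adjusted p = 1.39e-06) and under IFNγ (1.5, adjusted p = 6.85e-07). MMP14, the membrane-bound metalloproteinase that activates pro-MMP2, was at 165, 226 and 191 TPM in siCTRL, 151, 181 and 173 in siMITF, 145, 241 and 206 in siCTRL + IFNγ, and 115, 202 and 189 in siMITF + IFNγ. Its conditions overlapped and it passed in no comparison (−0.20 with siMITF, adjusted p = 0.529).

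PLAT, tissue plasminogen activator, was at 82.8, 90.5 and 83.0 TPM in siCTRL, 179.7, 182 and 181 in siMITF, 82.0, 93.8 and 83.5 in siCTRL + IFNγ, and 181, 189.8 and 191 in siMITF + IFNγ. The siMITF libraries all lay above the siCTRL libraries, with 2.12 times the mean TPM without IFNγ and 2.17 times with it. PLAT rose with siMITF (1.07, SE 0.07, adjusted p = 1.35e-07) and under IFNγ (1.11, adjusted p = 1.16e-07), and its IFNγ values were 0.02 (adjusted p = 0.918) and 0.05 (adjusted p = 0.644). PLAU, urokinase, did not exceed 0.215 TPM. SERPINE2, protease nexin-1, which inhibits plasminogen activators and thrombin, had means of 407 TPM ± 29.0, 573 ± 30.8, 356 ± 47.5 and 499 ± 1.48 in siCTRL, siMITF, siCTRL + IFNγ and siMITF + IFNγ. It rose with siMITF by 0.49 and under IFNγ by 0.50 (adjusted p = 0.000947 and 0.000961).

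The tissue inhibitors of metalloproteinases did not move as a group. TIMP1 was at 75.0, 72.2 and 70.2 TPM in siCTRL, 126, 125 and 129.8 in siMITF, 72.9, 73.8 and 68.5 in siCTRL + IFNγ, and 135, 120.0 and 124 in siMITF + IFNγ. It rose with siMITF (0.80, SE 0.07, adjusted p = 1.39e-06) and under IFNγ (0.81, adjusted p = 1.44e-06). TIMP2, which also takes part in the activation of pro-MMP2, was at 118, 125 and 119 TPM in siCTRL, 89.0, 96.3 and 88.9 in siMITF, 109, 139.8 and 126 in siCTRL + IFNγ, and 101, 102 and 108 in siMITF + IFNγ. TIMP1 was thus below TIMP2 in all siCTRL libraries and above it in all siMITF libraries.

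TIMP2 fell with siMITF (−0.40, adjusted p = 0.00321) and under IFNγ (−0.26, adjusted p = 0.0352). The second call was lost without siCTRL replicate 3 (adjusted p = 0.0504), siMITF replicate 1 (0.0506), siCTRL + IFNγ replicate 2 (0.118) or 3 (0.101), or siMITF + IFNγ replicate 1 (0.0739) or 2 (0.0899). It was also lost with no filter (0.0583), no intensity trend (0.0510) or only the compared groups in the fit (0.141). TIMP3, which is bound to the matrix, was at 4.78, 5.94 and 5.25 TPM in siCTRL, 4.62, 5.52 and 5.12 in siMITF, 2.94, 3.69 and 3.62 in siCTRL + IFNγ, and 3.06, 3.87 and 3.72 in siMITF + IFNγ. All IFNγ libraries lay below all untreated libraries. TIMP3 fell with IFNγ in siCTRL (−0.52, SE 0.12, adjusted p = 0.0113, lost without siCTRL replicate 2, 0.0560) and in siMITF cells (−0.42, adjusted p = 0.0232, lost without siMITF replicate 2, 0.102, or 3, 0.0677, or siMITF + IFNγ replicate 1, 0.0789). TIMP3 also lost the call in siMITF cells with no filter (0.0527). Its siMITF values were −0.05 (adjusted p = 0.773) and 0.04 (adjusted p = 0.814).

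Other matrix genes were counted in the same fit. Of 161 further genes in lists of collagens, glycoproteins, proteoglycans, collagen biosynthesis enzymes, proteases and protease inhibitors, 64 were tested. With siMITF 35 rose and 6 fell (54.7% and 9.38% of the 64, against 21% and 13.8% of all genes), and under IFNγ 31 rose and 5 fell (48.4% and 7.81%, against 18.4% and 14.7%). With IFNγ 12 rose and 9 fell in siCTRL cells (18.8% and 14.1%, against 6.8% and 6.14%). In siMITF cells 9 rose and 12 fell (14.1% and 18.8%, against 7.99% and 12.2%). By limma 0 of the 64 interactions passed, against 0.947% of all genes, and the median interaction was −0.05. An unadjusted p under 0.05 was reached by 9, with the share of all genes at that level not counted. By list, siMITF raised 4 of 5 collagens, 12 of 19 glycoproteins (3 fell), 1 of 3 proteoglycans (1 fell), 8 of 18 biosynthesis genes, 7 of 15 proteases (1 fell) and 3 of 4 inhibitors (1 fell).

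The largest rises among them with siMITF were in MMP15, a membrane-bound metalloproteinase (means of 9.77 and 49.7 TPM, log2 change 2.24), COL5A3, another collagen V chain (11 and 44.4 TPM, 1.92), and SERPINB2, an inhibitor of plasminogen activators (0.489 and 4.23 TPM, 1.81). Both genes that fell by the stricter call were CTSL, cathepsin L (277 and 84.8 TPM, −1.70), and BCAN, brevican (40.0 and 15.3 TPM, −1.33). Under IFNγ SERPINB2 (2.05), COL5A3 (2.02) and MATN2 (1.75) rose most, and CTSL (−1.97) and BCAN (−1.20) fell. HAPLN3 and CTSS were named after their values were seen. HAPLN3, a link protein of hyaluronan, had means of 0.289 TPM in siCTRL and 37.0 in siCTRL + IFNγ (log2 change 4.87), and CTSS, cathepsin S, had 1.63 and 24.4 (3.28).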

How the data were processed

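RNA from 12 libraries of 624Mel cells was sequenced by the authors after library preparation with a kit that does not keep strand. Per the study's methods, reads were trimmed by the authors (Trimmomatic 0.39) and assigned with kallisto to the Ensembl GRCh38 transcriptome, giving the deposited table of TPM for every gene in each library; the Ensembl release and the tool that summed transcripts are not given in the sources used here. The authors ran DESeq2 on counts that are not used here. TPM hold no depth, so no counting interval is given. Libraries were grouped by their labels, with 3 per condition. The study describes its experiments as independent repeats, but the labels do not say whether the libraries are separate cultures, and p-values then measure the spread between these libraries.

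Values were transformed as log2(TPM + 1), a scale that understates changes of low genes. A limma model (version 3.58.1, R 4.3.3) was run on 12773 genes that averaged 2 TPM or more in some condition, using 1 coefficient per condition, an intensity trend, two-sided tests and Benjamini-Hochberg adjustment over all tested genes. The interaction came from the same fit. A gene rose or fell with an adjusted p under 0.05. It changed when the absolute log2 value was also at least 1 (over 1 for the interaction) and a compared condition averaged 2 TPM or more. All 44 members are named, library values are given for those that changed or passed the interaction and for their partners, and up to 3 further matrix genes are named per direction and siMITF comparison. The members and lists were chosen with earlier results of these data known. Once condition means were removed, the 18 library pairs sharing a replicate number correlated at 0.102 to 0.625 across genes (median 0.28). The 36 pairs with different numbers ran from −0.474 to 0.226 (median −0.20). Removing means of 3 libraries ties both sets of values together, so the second is not separate support. Libraries of the same number thus tended to deviate together, but the labels do not state a pairing. The fit was tested on simulated data.

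Alternatives were pseudocounts of 0.1 and 0.5, no filter, a mean of at least 5 TPM, quantile normalization, centring each library on its median, TPM rescaled without mitochondrial genes, no trend, only the compared groups in the fit, the replicate block, and each library left out. Positions are from GENCODE 44. Python 3.11.15, pandas 2.3.3 and matplotlib 3.10.9 were used for tables and plots.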

Additional observations from a re-analysis of the deposited data

Results flagged for a closer look

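LOXL3 was set apart because its IFNγ effect differed between siCTRL and siMITF cells by a test of the difference itself. The interaction was −1.07 on the log2(TPM + 1) scale (SE 0.20, limma adjusted p = 0.0253), with values of −0.08 in siCTRL and −1.16 in siMITF cells, and all 3 siMITF + IFNγ libraries lay below all 3 siMITF libraries. Over the alternatives that could test it, the adjusted p ran from 0.00847 to 0.215. LOXL3 was at or under 0.501 TPM in the siCTRL conditions, and the pseudocount compresses changes there. The cause was not tested. With 3 libraries per condition, single libraries were not tested as outliers.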

How the results depend on the processing

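Of 3108 values of the 24 tested genes under the alternatives, 2953 kept their side of the threshold, 85 lost it, 70 gained it and none that passed turned its sign, while 71 values that did not pass did. Of the 73 calls reported, 56 held under every alternative that tested the gene. A mean of at least 5 TPM left 19 of the 24 genes to test. The number of genes passing for IFNγ in siCTRL cells, reported as 7, was 11 with quantile normalization and 11 with the replicate block. All genes passed at 22.1% and 25.7% there. With 1 library left out the number was 3 to 8 (3 without siCTRL replicate 2), while 1054 of 12783 to 2049 of 12794 passed among all genes. For IFNγ in siMITF cells, reported as 6, it was 14 with quantile normalization, 12 with libraries centred on their median and 11 with the block. Among all 12773 genes these settings gave 3996, 3810 and 4556. For the interaction, reported as 1, it was 0 with pseudocounts of 0.1 or 0.5, no filter, a mean of at least 5 TPM or quantile normalization, 2 after centring, 3 with the block, and 0 to 1 with 1 library left out. The number that also met the size limit for the interaction was 0 under the same 5 settings and 0 to 1 with 1 library left out. Among all 12773 genes the interactions passing were 263 after centring and 276 with the block. With 1 library left out they ran from 70 of 12809 to 125 of 12794. Without siMITF + IFNγ replicate 1 the LOXL3 interaction passed (adjusted p = 0.0176) at −0.90, short of the size limit. The mean of 5 TPM removes LOXL3 from the test, and for the other settings the cause was not tested. The replicate block added 16 calls and removed none. Those are given beside the results, and it changed no other call.

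Over all tested genes, the number passing for IFNγ in siCTRL cells was 1652, and it was 2825 with quantile normalization, 2814 after centring, 3281 with the block and 1078 with only the compared groups. It was 1060 without siCTRL replicate 2 and 1054 without siCTRL + IFNγ replicate 3. For IFNγ in siMITF cells it was 2574, and 3996 with quantile normalization, 4556 with the block and 1647 without siMITF replicate 2, where 53.4% of the genes passing were higher, against 39.6%. For siMITF under IFNγ it was 4229, and 2736 with only the compared groups. For the interaction it was 121, and 68 with a pseudocount of 0.1, 65 with a mean of at least 5 TPM, 294 with quantile normalization, 263 after centring, 220 without mitochondrial genes and 276 with the block. The interaction count was 78 and 74 without siCTRL replicates 1 and 3, 75 and 70 without siMITF replicates 2 and 3, and 75 without siCTRL + IFNγ replicate 3. With a mean of at least 5 TPM, the genes changed were 245 instead of 377 for IFNγ in siMITF cells and 32 instead of 61 for the interaction. Of the genes passing for IFNγ in siCTRL cells 868 of 1652 were higher, against 1178 of 2825 with quantile normalization. Of the matrix genes passing for IFNγ in siMITF cells 3 of 6 were higher, against 6 of 9 after rescaling without mitochondrial genes. The depth of the libraries is unknown, so low genes such as LOXL3 and COL6A2 have no counting limit.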
